A study of Homo sapiens with 6 samples.

Results

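The genes described here encode the machinery of protein synthesis and its closest regulators: cytosolic and mitochondrial aminoacyl-tRNA synthetases, initiation and elongation factors, and cytosolic and mitochondrial ribosomal proteins. They were picked by a rule on gene symbols that was set with earlier results of these data known. Of the 3511 genes in the deposited table, 54 matched. The study sequenced total RNA of RKO, a human colorectal cancer cell line whose genotype is labelled WT, cultured for 48 h. The control libraries (n = 3) came from cells given 10% serum with 4.5 g/L glucose, the fasting libraries (n = 3) from cells given 1% serum with 1 g/L glucose. The design text also names 5-FU and oxaliplatin treatments, which were not analysed here. Whether replicates were cultured separately is not stated, so a p-value here reflects sample-to-sample spread that may be technical.

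Aminoacyl-tRNA synthetases load each amino acid onto its tRNA. Initiation factors bring the ribosome to the start codon, and elongation factors deliver the loaded tRNAs and move the ribosome along the mRNA. Mitochondria use a separate set of ribosomal proteins and synthetases, encoded in the nucleus, to make a few subunits of the respiratory chain. Cells short of nutrients can slow initiation through kinases that phosphorylate the factor eIF2, and many cytosolic synthetase genes are known targets of ATF4, a transcription factor made under that condition.

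The table holds only genes that the authors had called, 11.8% of the 29845 they tested, and no adjusted p in the authors' deposited table exceeds 0.04999. A gene outside it is called not listed, and no value for it was used. Reads in the listed genes numbered 4017618 to 5602177 per library. Values are normalized counts, in which each library's reads were divided by its size factor. Differences are given as log2 fold changes of fasting over control, computed from log2(normalized count + 1). Fasting replicate 3 stood apart from the other fasting libraries by transcript length, as described with the ribosomal proteins. Of 9 colon epithelial markers looked for, only the keratin gene KRT18 was listed, so the labelled cell type could not be checked further. KRT18 had 757, 656 and 755 normalized counts in control medium and 2018, 1959 and 3402 in fasting medium. None of 6 fibroblast and 5 leukocyte markers was listed.

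Of the 262 protein-coding genes in RefSeq that match the same symbols, 54 (20.6%) were listed, against 15.2% of all 20052 RefSeq protein-coding genes. Neither set was limited to genes read in these libraries, so the shares are not matched for expression and were not tested. The share differed between classes, which were assigned by gene symbol. It was 55% for cytosolic synthetases (11 of 20), 42.9% for elongation factors (3 of 7), 33.3% for initiation factors (16 of 48) and 28.6% for regulators of these factors (4 of 14). It was 23.5% for mitochondrial synthetases (4 of 17), 12.2% for cytosolic ribosomal proteins (10 of 82) and 8.11% for mitochondrial ribosomal proteins (6 of 74). Listing depends on the authors' adjusted p, so an unlisted gene is not shown to be unchanged. Among the 10 listed cytosolic ribosomal proteins that deposited value ran from 0.0030 (RACK1) to 0.043 (RPLP0), and it was 0.044 for EEF1B2. The listed genes are thus a minority of the ribosomal proteins, and what follows describes listed genes only.

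In the limma test across all listed genes, with Benjamini-Hochberg adjustment over the 29845 genes the authors tested, all 54 listed translation genes passed, 46 higher and 8 lower in fasting medium. The background is high, because the table was selected for change: 94.3% of all listed genes passed, 49.7% higher and 44.6% lower. All 54 had groups that did not overlap, as did 100% of listed genes. Among the 54, 23 rose at least 2-fold (background 26.6%) and 0 fell at least 2-fold (background 19.8%). All 40 listed synthetases, factors and ribosomal proteins of the cytosol rose, with a median log2 fold change of 1.00. Of the 10 mitochondrial counterparts, 4 rose and 6 fell, with a median of -0.63. The median of all listed genes called higher was 1.04, so the cytosolic genes as a group did not stand above other rising genes.

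**Figure D1:**
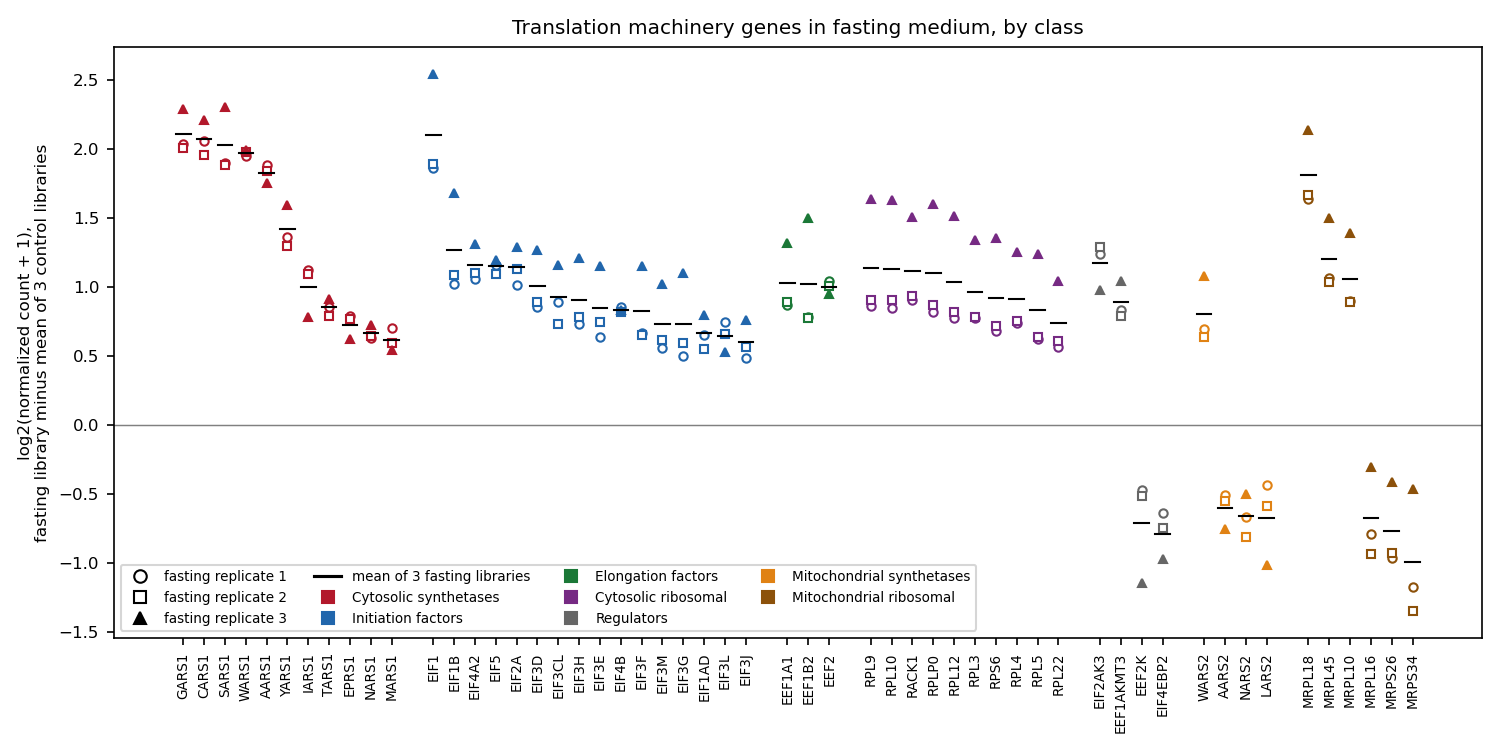
Each column is a gene, and the y axis gives log2(normalized count + 1) in each fasting library minus the mean of the 3 control libraries. Circles, squares and triangles are fasting replicates 1, 2 and 3, and black bars are their means. The 40 cytosolic factors, synthetases and ribosomal proteins all lie above 0, while 6 mitochondrial genes and 2 regulators lie below it.

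All 11 listed cytosolic synthetases rose (background 49.7%), 6 of them at least 2-fold (background 26.6%). Their median log2 fold change was 1.42, with a range from 0.61 for MARS1 to 2.11 for GARS1. GARS1 (ENSG00000106105), which charges glycine tRNA, had 1940, 1762 and 1873 normalized counts in control medium and 7610, 7477 and 9084 in fasting medium. CARS1 (ENSG00000110619), the cysteine enzyme, had 397, 381 and 429 in control medium and 1673, 1566 and 1867 in fasting medium. SARS1 (ENSG00000031698), the serine enzyme, had 1684, 1720 and 1659 in control medium and 6280, 6243 and 8360 in fasting medium. For each of these genes every fasting library lay far above every control library, and the fasting libraries differed little beside that gap. Groups that did not overlap were seen for 100% of listed genes. WARS1, the tryptophan enzyme, had 1450, 1379 and 1485 in control medium and 5560, 5659 and 5712 in fasting medium. Its fasting libraries were the tightest of the 4. The log2 fold changes (± SE, n = 3 each) were 2.11 ± 0.10 for GARS1, 2.08 ± 0.10 for CARS1, 2.03 ± 0.12 for SARS1 and 1.97 ± 0.07 for WARS1, with limma adjusted p from 9.4e-06 to 5.6e-05.

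The other synthetases rose less. AARS1 (alanine) rose by a log2 fold change of 1.82, YARS1 (tyrosine) by 1.42, IARS1 (isoleucine) by 1.00 and TARS1 (threonine) by 0.85. EPRS1, which charges both glutamate and proline tRNAs, rose by 0.72, NARS1 (asparagine) by 0.67 and MARS1 (methionine) by 0.61. IARS1, EPRS1 and MARS1 belong to the multi-synthetase complex, a particle of several synthetases bound together. These 3 had a median log2 fold change of 0.72, against 1.90 for the 8 listed synthetases outside it. That grouping was made after the values were seen and was not tested.

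Promoter sequence was compared because the synthetases moved together and ATF4 targets carry a known element, the C/EBP-ATF response element. RefSeq promoters (GRCh38.p14, from 250 bases before to 50 bases after the start site) were found for 44 of the 54 genes. Those of EEF1AKMT3, RPL5, MRPL10, EIF3CL, EIF3E, EIF3G, EIF3H, EIF3L, AARS2 and YARS1 were not matched. The letters TGATGNAA, a core of the element, were searched on both strands (TTNCATCA on the other strand). The promoters of the 4 synthetases with the largest rises that hold a match are shown as 30-base windows, 5′ to 3′ on the strand of the gene, with the match in capitals.
GARS1: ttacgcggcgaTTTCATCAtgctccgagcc
CARS1: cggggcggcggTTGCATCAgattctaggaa
AARS1: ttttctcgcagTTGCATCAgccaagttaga
IARS1: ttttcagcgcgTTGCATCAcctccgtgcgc
The GARS1 window lies at chr7:30594834-30594863 on the plus strand, with the match from -33 to -26 relative to the start site, which is counted as 1 with no position 0. The CARS1 window lies at chr11:3057407-3057436 on the minus strand, with the match from -2 to 6, across the start site. The AARS1 window lies at chr16:70289675-70289704 on the minus strand, with the match from -187 to -180. The IARS1 window lies at chr9:92293692-92293721 on the minus strand, with the match from -13 to -6. All 4 matches are in the reverse orientation, and 3 of them share the letters TTGCATCA, while GARS1 has TTTCATCA.

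The letters were found in 7 of the 10 listed synthetases with a promoter (70%), the others being MARS1, NARS1 and TARS1. They were found in 0 of the 34 listed genes of the other classes and in 0 of 6 unlisted cytosolic synthetases. Of the other unlisted genes, 2 of 56 cytosolic ribosomal proteins, 1 of 30 initiation factors and 1 of 61 mitochondrial ribosomal proteins held them. So did 1 of 11 unlisted mitochondrial synthetases, but 0 of 2 elongation factors (EEF1G, and EEF1E1 by its symbol only) and 0 of 6 regulators. The shares were 3.79% of 2588 listed genes and 4.46% of all 27305 genes of the promoter table. Counted by promoter, since a gene can have several, they were in 7 of 15 promoters of the listed synthetases (46.7%) and in 3.62% of all 35116 promoters. Within the listed synthetases the match did not sort the rises. The 7 with a match had a median log2 fold change of 1.00, and the 3 without one (EPRS1, SARS1 and WARS1) had 1.97. A match describes letters in this window and is not evidence of binding.

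Initiation factors rose in all 16 listed cases (background 49.7%), 6 of them at least 2-fold (background 26.6%). Their median log2 fold change was 0.88, against 1.04 for all listed genes called higher. EIF1 (ENSG00000173812), which helps the scanning ribosome choose the start codon, stood apart from the rest. It had 3576, 3657 and 3335 normalized counts in control medium and 12784, 13073 and 20552 in fasting medium, a log2 fold change of 2.10 ± 0.18 (SE; limma adjusted p = 2.4e-04), and 1.88 without fasting replicate 3. Its close relative EIF1B had 443, 409 and 472 in control medium and 894, 938 and 1418 in fasting medium. Both genes were highest in fasting replicate 3. The log2 fold change of EIF1B was 1.26, and 0.64 with the length trend removed. The EIF1 to EIF1B ratio within a library rose by 0.84, 0.80 and 0.86 on the log2 scale in fasting replicates 1 to 3, relative to the mean of the control libraries.

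EIF4A2, a helicase that unwinds the mRNA leader, had 2238, 2209 and 2179 in control medium and 4598, 4732 and 5493 in fasting medium. EIF5, which makes eIF2 hydrolyse its GTP at the start codon, had 3761, 4003 and 3693 in control medium and 8531, 8136 and 8759 in fasting medium. Their log2 fold changes were 1.16 and 1.15, and their fasting libraries lay close together. The 9 listed genes of eIF3, the large scaffold that binds the small ribosomal subunit, rose by 0.60 (EIF3J) to 1.00 (EIF3D), with a median of 0.82. EIF3G did not pass without any 1 of the control replicates (adjusted p = 0.0615 to 0.0781) or with the length trend removed (adjusted p = 0.573). EIF3A, EIF3B, EIF3C, EIF3I and EIF3K were not listed. EIF3CL is a near-identical copy of EIF3C, so how its reads were divided is uncertain. EIF3L shares 41.1% of its exon bases with another annotated gene on the same strand (GENCODE 29). None of the subunits of eIF2 and its exchange factor eIF2B was listed, nor was the cap-binding protein EIF4E or any of the eIF4G scaffolds.

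The 3 listed elongation factors rose by nearly the same amount. EEF1A1, which delivers loaded tRNAs, had 152114, 149374 and 141662 normalized counts in control medium and 270234, 273348 and 367709 in fasting medium. EEF1B2, which recharges EEF1A1 with GTP, had 7040, 6986 and 7275 in control medium and 12234, 12126 and 20112 in fasting medium. EEF2, which moves the ribosome by a codon, had 65056, 66282 and 79692 in control medium and 144265, 140615 and 135404 in fasting medium. The first 2 were highest in fasting replicate 3, and EEF2 was lowest there. Their log2 fold changes were 1.03, 1.02 and 1.00, with limma adjusted p of 0.0037, 0.0088 and 0.0013. With the length trend removed EEF1B2 had 0.44. The EEF1A2, EEF1D, EEF1E1 and EEF1G genes were not listed, and EEF1E1 was counted in this class by its symbol only.

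All 10 listed cytosolic ribosomal proteins rose (background 49.7%), within a narrow range of log2 fold changes from 0.74 (RPL22) to 1.14 (RPL9). The rise was at least 2-fold for 5 of them (background 26.6%). None reached 2-fold without fasting replicate 3, where the largest value was 0.92 (RACK1). With the length trend removed none did either, the largest value being 0.88 (RPL9). RPL9 had 8905, 8449 and 8336 normalized counts in control medium and 15572, 16041 and 26646 in fasting medium. RPL10, which joins the large subunit late in its assembly, had 7650, 7311 and 7937 in control medium and 13753, 14288 and 23639 in fasting medium. RACK1, a scaffold on the small subunit, had 15850, 15632 and 17304 in control medium and 30422, 31096 and 46094 in fasting medium. Fasting replicate 3 was far above the other fasting libraries in each. RPLP0, of the stalk that binds elongation factors, had 32029, 31465 and 33519 in control medium and 57056, 59001 and 98288 in fasting medium. RPL3 had 35201, 34492 and 37622 in control medium and 61124, 61360 and 90286 in fasting medium, and RPL4 had 26469, 25625 and 26265 in control medium and 43661, 43918 and 62390 in fasting medium. RPL10 shares 34.2% of its exon bases with DNASE1L1 on the opposite strand, and strand use in counting is not given in the sources used here.

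Fasting replicate 3 was the highest of the fasting libraries for all 10 of these ribosomal proteins, by a median of 0.63 on the log2 scale (range 0.46 to 0.76). For the 11 cytosolic synthetases this difference was 0.09 (-0.33 to 0.42), and for the 16 initiation factors 0.37 (-0.18 to 0.67). The median transcript length was 1451 bases for the listed ribosomal proteins and 3099 bases for the synthetases. Across the 54 genes the difference had a Spearman correlation of -0.759 with transcript length, and across 2886 listed genes -0.722. These are descriptions of 1 library, since all points share it. Without fasting replicate 3 the median log2 fold change of the ribosomal proteins was 0.78, and all 10 still passed (background 50.2% higher and 49.8% lower). With the trend with transcript length removed from every library it was 0.61 (background 44.9% higher and 40.2% lower), and RPL5, RPL12 and RPL22 no longer passed (adjusted p = 0.14, 0.892 and 0.0529). Leaving out single control libraries also ended calls, of RPL5 for each of the 3 (adjusted p = 0.0555 to 0.0648), of RPL22 for control replicate 2 or 3 (0.0544 and 0.0912) and of RPS6 for control replicate 1 or 3 (0.0508 and 0.0557). The part of library quality in these values was not tested.

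**Figure D2:**
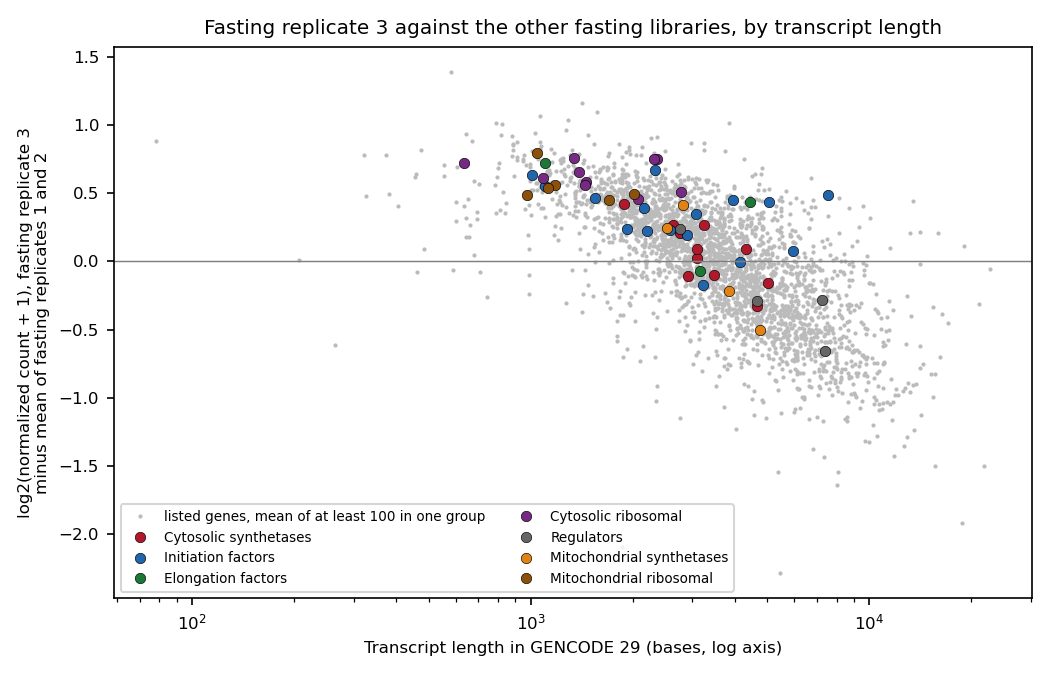
The x axis is transcript length in bases (log axis), and the y axis is log2(normalized count + 1) in fasting replicate 3 minus the mean of fasting replicates 1 and 2. Grey points are 2886 listed genes and coloured points the 54 translation genes by class. The 10 cytosolic ribosomal proteins lie between 0.46 and 0.76, above all 11 cytosolic synthetases.

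The start sites were compared because ribosomal protein and elongation factor mRNAs are known to begin with a terminal oligopyrimidine (TOP) tract, through which mTOR signalling controls their translation. A TOP start was taken as a C at the RefSeq start site followed by at least 4 pyrimidines. The first 15 bases of a few are shown, with the unbroken tract in capitals.
EEF1A1: CTTTTTCgcaacggg
EEF2: CTCTTCCgccgtcgt
RPLP0: CCTTCTCTCgccagg
RPL10: CTCTTTCCCTTCggt
RACK1: CTCTCTTTCactgca
EIF4A2: CTTTTCagtcgggcg
The start sites lie at chr6:73521032 for EEF1A1, chr19:3985463 for EEF2, chr12:120201111 for RPLP0 and chr5:181243906 for RACK1, all on the minus strand, and at chrX:154398377 for RPL10 and chr3:186783577 for EIF4A2 on the plus strand. A TOP start was found in 6 of 9 listed ribosomal proteins, 3 of 3 elongation factors, 6 of 11 initiation factors and 0 of 10 cytosolic synthetases. It was found in 207 of 2588 listed genes and in 5.14% of all genes of the table. None of the 44 listed genes with a promoter in the table had both a TOP start and the TGATGNAA letters, but the unlisted RPL31 and RPS23 had both. Among unlisted genes, 41 of 56 ribosomal proteins (73.2%) and 4 of 30 initiation factors (13.3%) had a TOP start. So did 0 of 2 elongation factors (EEF1G, and EEF1E1 by its symbol only) and 1 of 6 cytosolic synthetases. All 17 genes with a TOP start rose, including MRPL45 and WARS2, with a median log2 fold change of 1.02. Of the 27 without one, 20 rose and 7 fell, with a median of 0.92 (background 49.7% higher and 44.6% lower). All 7 were mitochondrial genes or regulators, so TOP start and class were not separated. The ribosomal proteins RPL3, RPL4 and RPL9 count as without one, by their RefSeq start sites. The data are mRNA levels and hold no measure of translation.

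**Figure D3:**
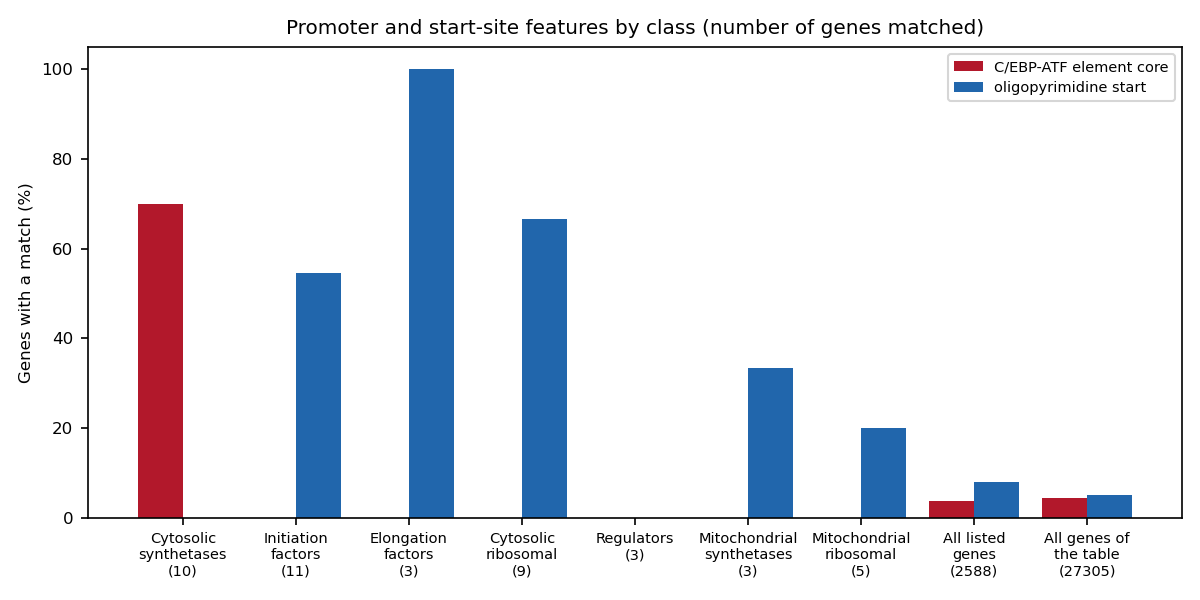
Bars give the percentage of genes with a match in each class, with the number of genes matched to the promoter table under each class name. The C/EBP-ATF element core is at 70% in listed cytosolic synthetases and 0 in listed genes of the other classes. Oligopyrimidine starts are at 0 in listed cytosolic synthetases and present in all 3 listed elongation factors.

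The mitochondrial ribosomal proteins split. MRPL18, which also has a role in cytosolic stress responses, had 885, 842 and 934 normalized counts in control medium and 2756, 2809 and 3902 in fasting medium, a log2 fold change of 1.81 ± 0.14 (SE; limma adjusted p = 1.6e-04). MRPL45 had 655, 589 and 619 in control medium and 1299, 1271 and 1757 in fasting medium, and MRPL10 had 890, 867 and 916 in control medium and 1659, 1654 and 2336 in fasting medium. These 3 rose at least 2-fold (background 26.6%). With the length trend removed MRPL18 had 1.18, but MRPL45 had 0.86 and MRPL10 had 0.77, both below 2-fold. Without fasting replicate 3 MRPL18 had 1.65, MRPL45 had 1.05 and MRPL10 had 0.89. The other 3, MRPL16, MRPS26 and MRPS34, fell. MRPS34 had 2289, 2499 and 2386 in control medium and 1057, 936 and 1728 in fasting medium. MRPS26 had 2343, 2452 and 2437 in control medium and 1235, 1264 and 1811 in fasting medium. MRPL16 had 1445, 1461 and 1564 in control medium and 858, 777 and 1203 in fasting medium. Their log2 fold changes were -0.998, -0.77 and -0.68, and fasting replicate 3 was the library nearest the controls in all 3. With the length trend removed the falls were larger, at -1.60, -1.33 and -1.21.

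These 3 calls changed when single libraries were left out. MRPL16 did not pass when any library other than fasting replicate 3 was left out (adjusted p = 0.090 to 0.13), nor with RLE scaling (adjusted p = 0.12). MRPS34 did not pass without any of the control replicates or fasting replicate 1 (adjusted p = 0.0585 to 0.075), nor MRPS26 without control replicate 2 or 3 (adjusted p = 0.051 and 0.057). Without fasting replicate 3 the calls stood, with larger falls of -1.26 for MRPS34 and -0.87 for MRPL16.

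Of the mitochondrial synthetases, WARS2 rose and AARS2, NARS2 and LARS2 fell. AARS2 had 735, 754 and 789 normalized counts in control medium and 532, 516 and 450 in fasting medium. NARS2 had 322, 335 and 331 in control medium and 207, 186 and 232 in fasting medium. LARS2 had 1011, 968 and 1060 in control medium and 749, 673 and 501 in fasting medium. Each of these 3 was lower in every fasting library than in any control library, but groups did not overlap for 100% of listed genes. WARS2 had 152, 193 and 182 in control medium and 283, 273 and 371 in fasting medium. The log2 fold changes were -0.61, -0.66, -0.68 and 0.80 (limma adjusted p from 0.0043 to 0.020). With the length trend removed LARS2 had -0.43. LARS2 did not pass without any 1 of the control replicates (adjusted p = 0.065 to 0.11), and WARS2 did not without control replicate 1 (adjusted p = 0.0582).

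Cytosolic and mitochondrial enzymes for the same amino acid could be compared within each library, where the size factor has almost no part. The AARS1 to AARS2 ratio rose by 2.39, 2.39 and 2.51 on the log2 scale in fasting replicates 1 to 3, relative to the control mean. The NARS1 to NARS2 ratio rose by 1.30, 1.46 and 1.22, and the WARS1 to WARS2 ratio by 1.26, 1.34 and 0.91. For all 3 pairs the cytosolic form gained on the mitochondrial form in every fasting library. For alanine and asparagine that direction was fixed in advance. The cytosolic gene rose, the mitochondrial gene fell, and groups did not overlap for 100% of listed genes. Only the WARS1 to WARS2 ratio, where both genes rose, could have gone either way.

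Of the regulators, 2 rose and 2 fell. EIF2AK3, which encodes PERK, the eIF2 kinase of the endoplasmic reticulum, had 229, 229 and 196 normalized counts in control medium and 515, 533 and 429 in fasting medium. EEF1AKMT3, which methylates EEF1A, had 60.2, 61.1 and 57.4 in control medium and 107, 104 and 124 in fasting medium. EIF4EBP2, a repressor of the cap-binding factor, had 1273, 1229 and 1065 in control medium and 760, 704 and 602 in fasting medium. EEF2K, the kinase that inhibits EEF2, had 1145, 1148 and 1156 in control medium and 829, 804 and 518 in fasting medium. EIF2AK3 and EEF1AKMT3 rose, with log2 fold changes of 1.17 and 0.89, and EIF4EBP2 and EEF2K fell, with -0.79 and -0.71. EEF2K did not pass without any 1 of the control replicates (adjusted p = 0.12 to 0.14), and with the length trend removed neither EEF2K nor EIF4EBP2 passed (adjusted p = 0.21 and 0.074). The kinases EIF2AK1, EIF2AK2 and EIF2AK4 and the repressors EIF4EBP1 and EIF4EBP3 were not listed.

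Between classes, each of the 4 cytosolic classes gained on both mitochondrial classes in every fasting library, by 0.55 to 1.73 on the log2 scale. The mean log2 value of the cytosolic synthetases minus that of the mitochondrial synthetases rose by 1.62, 1.68 and 1.73 in fasting replicates 1 to 3 relative to the control mean (mean 1.68, SD 0.05). The difference of cytosolic and mitochondrial ribosomal proteins rose by 0.65, 0.73 and 0.77 (mean 0.72, SD 0.06). Other pairs varied more between libraries. The cytosolic ribosomal proteins gained 0.99, 1.12 and 1.71 on the mitochondrial synthetases (SD 0.38), and the cytosolic synthetases gained 1.28, 1.29 and 0.79 on the mitochondrial ribosomal proteins (SD 0.29). By contrast, the synthetases gained 0.63 and 0.56 on the cytosolic ribosomal proteins in fasting replicates 1 and 2 but 0.02 in fasting replicate 3. Initiation factors differed from the ribosomal proteins by 0.10, 0.08 and -0.22. The lead of synthetases over ribosomal proteins thus rests on fasting replicates 1 and 2. These class differences were not tested.

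**Figure D4:**
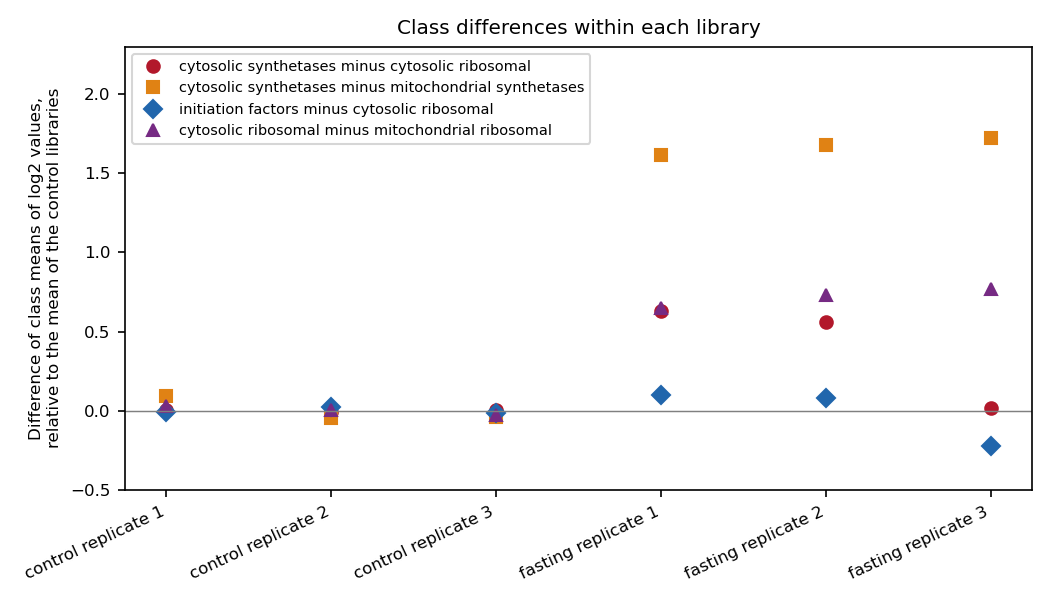
Points give, for each of the 6 libraries on the x axis, the difference between 2 classes in mean log2(normalized count + 1), relative to the mean of the control libraries. Cytosolic minus mitochondrial synthetases sits between 1.62 and 1.73 in the fasting libraries, while cytosolic synthetases minus ribosomal proteins drops to 0.02 in fasting replicate 3.

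Scaling bears on the direction of these values, because the listed genes do not give the total RNA of a library. In bulk RNA, fewer cells of a kind and less RNA per cell cannot be told apart. Scaling each library by its summed reads over listed genes shifted all log2 fold changes by -0.48, and the shift under RLE scaling, a median of ratios over the listed genes, was 0.20. Under total-read scaling, 26 of the 46 genes called higher still passed (background 24.6%), among them 7 of the 11 cytosolic synthetases, 8 of the 16 initiation factors, 2 of the 3 elongation factors and 5 of the 10 cytosolic ribosomal proteins, and all 8 called lower still passed (background 48.6%). The synthetases that no longer passed were IARS1, EPRS1, NARS1 and MARS1. Under RLE scaling all 46 passed as higher (background 50.2%), and AARS2, EEF2K, LARS2 and MRPL16 no longer passed as lower (background 33.4%).

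Of 74 other translation genes outside the symbol rule, 13 were listed. Of these, 11 rose and 1 fell (background 49.7% higher and 44.6% lower). The gene that fell was the ribosome collision sensor ZNF598, with a log2 fold change of -0.73. The remaining gene, GCN1, did not pass (-0.70, limma adjusted p = 0.12). Without fasting replicate 3, GCN1 passed with -0.42 (adjusted p = 1.6e-04). PPP1R15A, which encodes GADD34, the phosphatase subunit that removes the phosphate from eIF2, had 1734, 1801 and 1793 normalized counts in control medium and 18468, 17875 and 23251 in fasting medium. That is a log2 fold change of 3.47 ± 0.11 (SE; adjusted p = 5.1e-06), larger than that of any of the 54 genes. GTPBP2, a ribosome rescue factor, had 917, 937 and 881 in control medium and 2534, 2502 and 2426 in fasting medium. RSL24D1, which acts in large subunit assembly, had 1384, 1359 and 1355 in control medium and 3491, 3465 and 5187 in fasting medium. YRDC, which helps modify tRNAs, had 333, 316 and 316 in control medium and 640, 643 and 853 in fasting medium. Every fasting library exceeded every control library for these 4 genes, but groups did not overlap for 100% of listed genes. The log2 fold changes of the last 3 were 1.45, 1.54 and 1.13.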

How the data were processed

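The authors deposited 1 table for all 6 libraries. Its deposited sample columns hold normalized counts (a signal, reads divided by a size factor per library), and further deposited columns give a log2 ratio of the group means and a raw and adjusted p-value. HTSeq 0.6.1, DESeq 1.10.1 and UMI-tools 1.0.0 appear in the submitters' processing notes without stated roles. Not given in the sources used here are the aligner, genome build, annotation and use of strand. Libraries were made with a directional kit from column-purified RNA, per the labels' protocols. Groups follow the treatment labels, because the treatment protocol gives all samples the same low-serum medium.

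Whole reads were recovered for 100% of values within 0.01 read, with size factors of 1.01, 1.41 and 1.38 for control and 0.788, 0.956 and 0.727 for fasting replicates 1 to 3. The test was limma 3.58.1 (R 4.3.3; mean-variance trend, two-sided, threshold 0.05) on log2(normalized count + 1), keeping genes whose mean reached 1 in either group. Benjamini-Hochberg adjustment covered 29845 genes, with the unlisted ones counted as not significant. The moderation was estimated on listed genes only. The script was tested on simulated data. edgeR 4.0.16 and DESeq2 1.42.0 on the recovered reads called all 54 genes. Other alternatives were pseudocounts, filters, scalings, a replicate block, leaving out each library, removal of the transcript length trend (GENCODE 29 lengths), and adjustment over listed genes only.

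The members and lists were chosen with earlier results of these data known. Library values are given for the 4 largest absolute log2 fold changes of each class, for all members of classes with at most 6 listed, and for a few genes set by name. Other genes are named by fold change or as unlisted.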

Additional observations from a re-analysis of the deposited data

How the results depend on the processing

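Of the 54 genes, 27 passed under all 19 alternatives, and 10 lost their call when at least 1 library was left out. The number called higher was 26 with total-read scaling (background 24.6%) and 42 to 46 when 1 library was left out. The number called lower was 4 with RLE scaling (background 33.4%) and 3 to 8 when 1 library was left out, which leaves fewer samples. Without fasting replicate 3 the background was 50.2% higher and 49.8% lower. Background shares for the other leave-outs and for all 19 alternatives together are not given, so stability was not compared with that of other listed genes. With total-read scaling, which moves all genes alike, the median log2 fold change was 0.52 for cytosolic ribosomal proteins, 0.94 for cytosolic synthetases, 0.54 for elongation factors, 0.40 for initiation factors, -1.11 for mitochondrial synthetases and 0.45 for all 54 genes, and it turned to -0.29 for mitochondrial ribosomal proteins and -0.39 for regulators. With RLE scaling it was 1.62 for cytosolic synthetases, -0.44 for mitochondrial synthetases and 0.28 for regulators. With the length trend removed it was 0.61 for cytosolic ribosomal proteins, -0.46 for mitochondrial synthetases and 0.25 for regulators, and it turned to -0.22 for mitochondrial ribosomal proteins. The cause was not tested. Leaving out 1 library gave -0.66 to -0.52 for mitochondrial synthetases, 0.015 to 0.30 for mitochondrial ribosomal proteins (lowest without fasting replicate 3) and 0.042 to 0.16 for regulators (highest without fasting replicate 3).

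Same-numbered libraries did not deviate together (correlations of 0.031, 0.032 and 0.084 over 2785 genes), so the numbers are not taken as pairs. With the replicate block 45 genes were called higher and 8 lower. RPL22 lost its call (adjusted p = 0.069), and the block changed no other call among the 54. Total depth is unknown, since the table covers listed genes only.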

Other observations

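The deposited table also lists 40 pseudogenes of translation genes that the symbol rule covers, from 28 parent genes. Of these, 38 rose and 2 fell (background 49.7% higher and 44.6% lower). Those that fell were RPL22P12, with a log2 fold change of -2.46, and RPL13P8, with -1.37. The median log2 fold change of the 40 pseudogenes was 1.28, or 1.04 without fasting replicate 3. For 27 of the pseudogenes the parent gene itself is not listed, and 26 of those 27 rose. EEF1A1P5, a copy of EEF1A1, had a mean of 7024 normalized counts in control medium and 13119 in fasting medium. RPLP0P2 had 1.97, 4.97 and 2.91 normalized counts in control medium and 149, 149 and 180 in fasting medium, a log2 fold change of 5.28 (limma adjusted p = 3.2e-05), while RPLP0 rose 2.14-fold. Reads can be split between such copies and their parents in counting, and how this was done is not stated, which leaves values of both uncertain.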
